A study of Mus musculus with 24 samples.

Results

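The genes described here are 46 genes of the cell cycle and of DNA replication, named as a list by symbol and followed through the lower jaw of mouse embryos with and without p63. They were found by their annotated probes on the array, each gene being read from its brightest probe, and a gene counted as measured when that probe had a detection p-value under 0.05 on at least 3 arrays. Of the 46 genes, 44 had a probe and 40 were measured, among 12698 genes measured in all. Ccnb1 and Mki67 had no annotated probe, and their expression was not analysed here. The probes of Ccnb2, Bub1, Cenpe and Kif20a were detected on 0 of 24 arrays, and their readings are not described further. Of the 40 measured genes, 39 were detected on all 24 arrays, and Gmnn on 23.

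The RNA came from mandibular prominences, the paired swellings of the first pharyngeal arch that form the lower jaw, and each of the 24 arrays was hybridised with the unpooled prominence tissue of 1 embryo. Embryos were homozygous (p63-/-) or heterozygous (p63+/-) for the mutant p63 allele of the strain B6.129S7-Trp63tm2Brd/J, and were taken on embryonic days 10, 11, 12 and 13 (E10 to E13). That made 8 groups of 3 embryos, the 3 embryos of a group coming from different litters. The heterozygotes carry 1 mutant allele themselves, so every genotype difference below is p63-/- against p63+/-, and wild-type embryos were not analysed here. C57BL6/J mice are named among the strains of the study without a stated role for these samples.

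A dividing cell licenses its replication origins in G1 by loading the Mcm2 to Mcm7 helicase with the help of Cdc6 and Cdt1, starts replication under cyclin E and cyclin A kinases, and enters mitosis under Cdk1 with its mitotic cyclins. Transcription of these genes comes in waves: E2F factors act at the G1 to S transition on replication and nucleotide synthesis genes, and the MuvB complex with B-Myb and FoxM1 acts in G2 on mitotic genes. CDK inhibitors and the retinoblastoma family hold the program back as cells leave the cycle. Mesenchyme of the early facial prominences proliferates as the prominences grow out, and muscle, cartilage and bone begin to form from it and from incoming myoblasts in the days studied here.

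The promoters of a few genes are shown first, because the members are known as targets of these waves and most of them fell in the values that follow. Each line holds the 160 bases before the annotated start of the gene, 5′ to 3′ on the gene's own strand, from RefSeq for GRCm38.p6. Capitals mark an E2F motif (TTTCCCGC, TTTCGCGC, TTTGCCGC or TTTGGCGC), a CHR element (TTTGAA or TTCGAA) or a CCAAT box (CCAAT), on either strand. Matches may overlap, as an E2F pair does in Mcm5 and in Mcm6. Cdc6 (chr11:98907991-98908150 on the plus strand), Mcm5 (chr8:75109349-75109508 on the plus strand) and Mcm6 (chr1:128359706-128359865 on the minus strand) stand for the replication genes. Cdk1 (chr10:69352913-69353072 on the minus strand), Ube2c (chr2:164769769-164769928 on the plus strand) and Cdc20 (chr4:118437344-118437503 on the minus strand) stand for the mitotic genes.
Cdc6: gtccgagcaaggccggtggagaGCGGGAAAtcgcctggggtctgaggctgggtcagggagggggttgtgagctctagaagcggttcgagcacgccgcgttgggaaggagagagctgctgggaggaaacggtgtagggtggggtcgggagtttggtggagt
Mcm5: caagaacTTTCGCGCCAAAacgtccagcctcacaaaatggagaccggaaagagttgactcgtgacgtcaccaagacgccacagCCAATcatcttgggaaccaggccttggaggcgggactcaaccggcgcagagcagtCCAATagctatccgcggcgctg
Mcm6: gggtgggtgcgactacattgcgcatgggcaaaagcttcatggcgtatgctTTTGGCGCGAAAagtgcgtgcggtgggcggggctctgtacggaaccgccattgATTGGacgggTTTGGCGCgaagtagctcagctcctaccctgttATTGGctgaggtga
Cdk1: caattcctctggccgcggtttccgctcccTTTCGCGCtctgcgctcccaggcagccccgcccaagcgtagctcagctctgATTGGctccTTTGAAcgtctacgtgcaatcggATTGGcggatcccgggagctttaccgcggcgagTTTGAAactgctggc
Ube2c: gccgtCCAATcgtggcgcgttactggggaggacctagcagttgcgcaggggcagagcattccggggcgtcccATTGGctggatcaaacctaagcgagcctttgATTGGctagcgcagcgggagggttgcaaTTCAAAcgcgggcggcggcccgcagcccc
Cdc20: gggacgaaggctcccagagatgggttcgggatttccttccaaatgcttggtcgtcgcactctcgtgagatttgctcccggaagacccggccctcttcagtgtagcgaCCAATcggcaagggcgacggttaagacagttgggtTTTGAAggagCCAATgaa
Rrm2 (chr12:24708094-24708253 on the plus strand), which had the lowest stage change of the list, and E2f1 (chr2:154569427-154569586 on the minus strand), which did not pass the test of that change, complete the set.
Rrm2: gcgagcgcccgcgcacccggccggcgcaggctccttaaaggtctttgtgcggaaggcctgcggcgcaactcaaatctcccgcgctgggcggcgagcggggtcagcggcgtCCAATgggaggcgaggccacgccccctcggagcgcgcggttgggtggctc
E2f1: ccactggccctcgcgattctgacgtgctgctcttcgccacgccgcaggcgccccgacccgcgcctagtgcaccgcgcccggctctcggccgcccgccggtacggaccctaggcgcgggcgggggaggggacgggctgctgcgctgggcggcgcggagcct

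Windows reaching from 250 bases before to 50 bases after the start were given for 36 of the 46 genes. Foxm1, Ccna2, Ccnd1, Ccnd2, Ccne2, Mcm4, Gmnn, Aurkb, Tpx2 and Kif20a are named without one. Mcm7 and Prc1 had more than 1 window, and a gene counted as a match if any of its windows held the motif. Mcm7 held the E2F motif and the CHR element in only 1 of its windows. The E2F motif occurred in 42.9% of the 14 replication and nucleotide synthesis genes (6 of 14). It occurred in 5% of the 20 mitotic genes, where Cdk1 was the 1 match. Among the 10157 measured genes with a window it occurred in 4.45%. The CHR element showed the opposite distribution, with matches in 80% of the mitotic genes, 21.4% of the replication and nucleotide synthesis genes and 16.8% of all measured genes. All 16 mitotic genes with a CHR match also held a CCAAT box, a combination found in 7.06% of all measured genes. The 20 mitotic genes include Ccnb1, Ccnb2, Mki67, Bub1 and Cenpe, which were not measured. Of these, Ccnb2, Mki67 and Bub1 had a CHR match. A match describes letters in the window and says nothing of whether a factor binds there.

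As a check of the labels, Trp63 itself read at most 9.89 in p63-/- embryos and at least 10.19 in p63+/- embryos on its brighter probe, whose position relative to the targeted part of the gene is unknown here. All values in the text are normalized log2 intensities or differences between them. Between 43.35% and 48.98% of the probes were detected per array, and precision is limited by how many arrays there are. Of 13 mesenchymal markers of the mandibular arch 12 were measured, and their mean lay between 9.41 and 10.56 on every array. E10 p63-/- replicate 3 stood apart: the mean of 11 yolk sac endoderm genes was 13.04 on it and 5.80 to 7.59 on the other E10 arrays, with Afp, the fetal serum protein made by yolk sac and liver, at 13.77. Results on E10 are therefore also given without that array. At the later stages the yolk sac mean was highest on E11 p63+/- replicate 2 (7.83, Afp 9.56) and E12 p63-/- replicate 3 (7.39, Afp 8.87). The 6 arrays of a stage shared 1 slide, so stage and slide cannot be told apart, whereas the genotypes were compared within slides.

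**Figure D1:**
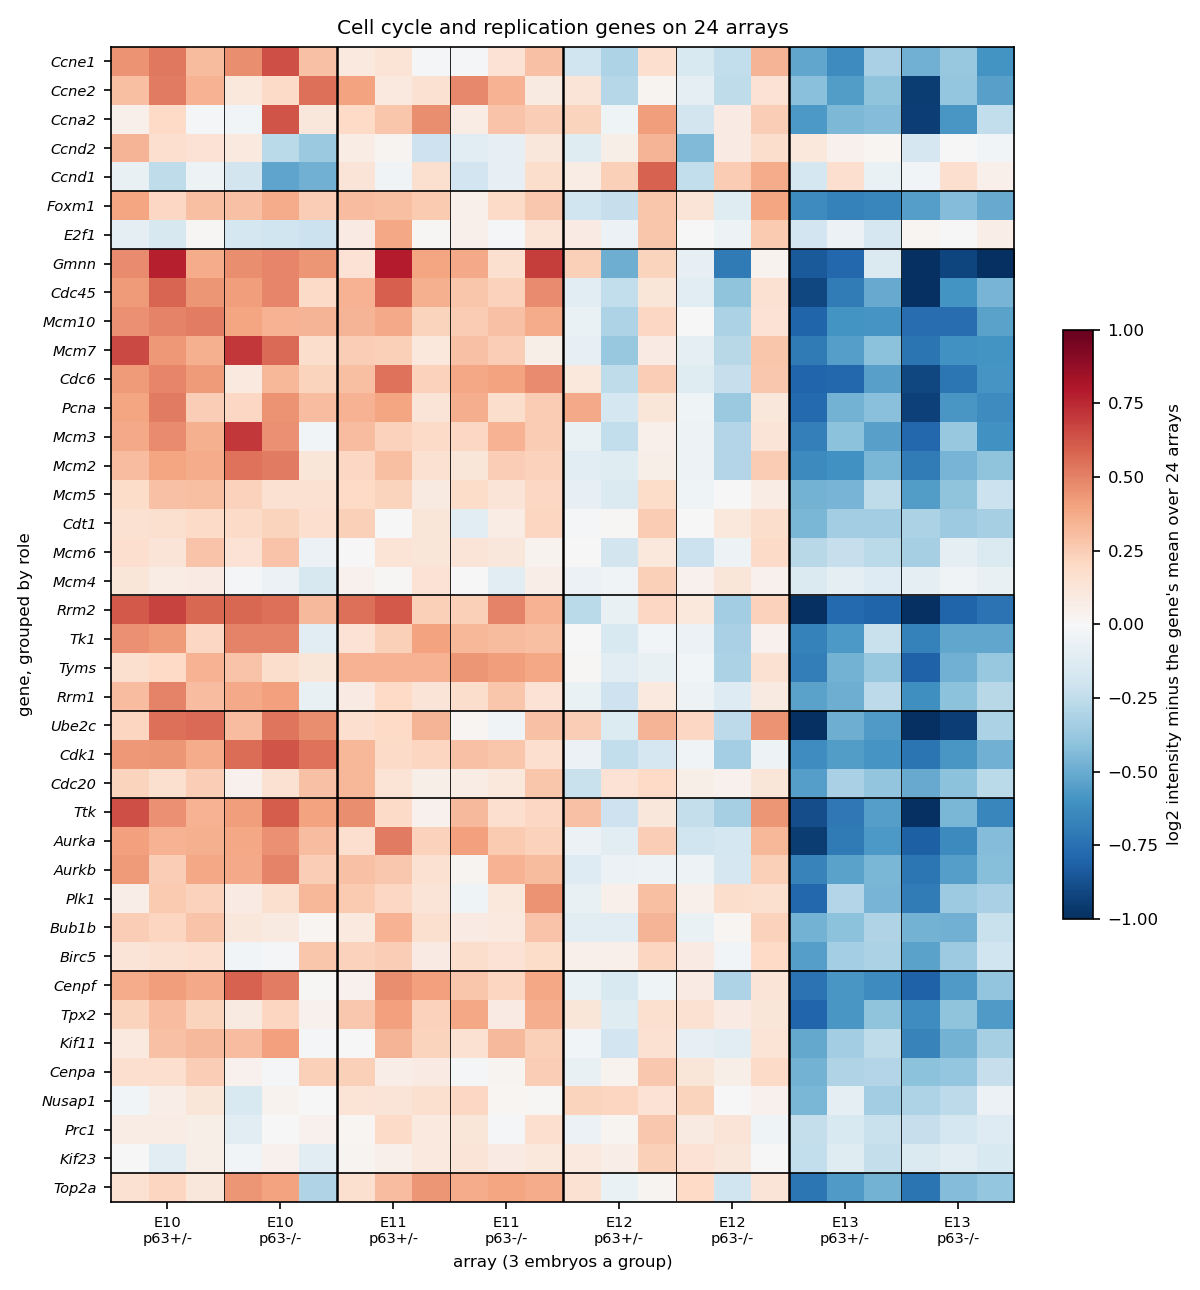
Normalized log2 intensity of the 40 measured genes on 24 arrays, shown as the difference from each gene's mean (colour scale from -1 to 1). Rows are grouped by role in the cycle and columns by stage and genotype, 3 embryos a group. The E13 columns are below the mean for most genes in both genotypes. Mcm4 lies only slightly below its mean at E13, and the E13 arrays of Ccnd1, Ccnd2 and E2f1 lie on both sides of theirs.

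No cell cycle gene passed the test of genotype. Averaged over the 4 stages, 0 of the 40 genes differed between p63-/- and p63+/- in limma at an adjusted p under 0.05, and 1 had an unadjusted p under 0.05. Among all measured genes 2.35% were called in this comparison and 10.2% had an unadjusted p under 0.05, so a list of 40 with none does not stand apart. The median difference of the 40 genes was -0.02, and that of all genes -0.01. Single genes ran from -0.19 for Gmnn to 0.06 for Foxm1. The median standard error was 0.06, and the 95% intervals of all 40 genes lay between -0.43 and 0.21. That bounds what this fit, made without pairing of embryos, could have missed on this average.

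The smallest unadjusted p belonged to Ccnd2, the D-type cyclin that with Cdk4 and Cdk6 carries growth signals into G1. Ccnd2 read 12.33 ± 0.20 in p63-/- and 12.49 ± 0.16 in p63+/- (SD, n = 12 arrays), a difference of -0.17 (SE 0.08, unadjusted p = 0.0417, adjusted p = 0.457 in limma). Its arrays overlapped between the genotypes. The 2 other Ccnd2 probes with signal differed in the same direction, by -0.24 and -0.28 (unadjusted p = 0.00996 and 0.0505 in limma). Gmnn, the geminin that blocks re-licensing of origins, differed by -0.19 (SE 0.12), Ccnd1 by -0.12 (SE 0.08) and the replication clamp Pcna by -0.11 (SE 0.07), with adjusted p from 0.638 to 0.685 in limma. Top2a, topoisomerase II of dividing cells, differed by 0.04 (SE 0.08) and Cdk1, the mitotic kinase, by 0.04 (SE 0.04). For none of the 40 genes did the 12 p63-/- arrays separate from the 12 p63+/- arrays, a separation seen in 0.11% of all genes.

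At single stages the count of called genes was again 0 of 40 at E10, E11, E12 and E13 in limma, with 2, 0, 0 and 0 genes at an unadjusted p under 0.05. The shares called among all genes were 0.795%, 0.512%, 0.299% and 0.307%, and the shares at an unadjusted p under 0.05 were 14%, 5.07%, 3.06% and 2.7%. The 95% intervals of the 40 genes ran from -0.72 to 0.52 at E10, from -0.57 to 0.45 at E11, from -0.72 to 0.45 at E12 and from -0.90 to 0.44 at E13. Single stages were therefore measured less closely than the stage average. The test of a genotype effect that changes with stage also called 0 of 40 genes in limma, and 0 had an unadjusted p under 0.05, against 0.0158% and 3.36% of all genes.

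E10 was the stage with the most negative values. Ccnd2 read 12.51, 12.14 and 12.04 in the 3 p63-/- embryos and 12.75, 12.58 and 12.56 in the 3 p63+/- embryos at E10, so the groups did not overlap. The difference was -0.40 (SE 0.15, unadjusted p = 0.0159, adjusted p = 0.235 in limma), and -0.31 without replicate 3 of p63-/- (adjusted p = 0.443 in limma). Mcm4, a subunit of the replicative helicase, differed by -0.17 at E10 (SE 0.08, unadjusted p = 0.0453, adjusted p = 0.343 in limma). In all, 8 of the 40 genes had every p63-/- array below every p63+/- array at E10 (Ccnd2, Cdc6, Mcm4, Mcm10, E2f1, Bub1b, Tpx2 and Prc1), and Cdk1 had every p63-/- array above. Among all genes 11.4% were separated downward and 6.82% upward at this stage. Without replicate 3 of p63-/-, 12 genes were separated downward and 5 upward, against 18.6% and 18% of all genes. The median of the 40 genes was -0.07, beside -0.02 for all genes. Leaving out replicate 3 of p63-/- moved it to -0.03.

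At the later stages few genes were separated. Tyms, thymidylate synthase, was above on every p63-/- array at E11, where 5.13% of all genes were, and 0 genes were below, against 4.32%. At E12, 0 genes were separated in either direction, against 3.52% downward and 3.43% upward. At E13 Ccnd2 and Gmnn were below on every p63-/- array, against 3.97% of all genes, and E2f1 and Foxm1 above, against 3.91%. Gmnn at E13 read 5.54, 5.61 and 5.43 in p63-/- and 5.69, 5.75 and 6.39 in p63+/-, a difference of -0.42 (SE 0.23, unadjusted p = 0.0842, adjusted p = 1 in limma). Replicate 3 of p63+/- lay above the other 5 embryos.

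**Figure D2:**
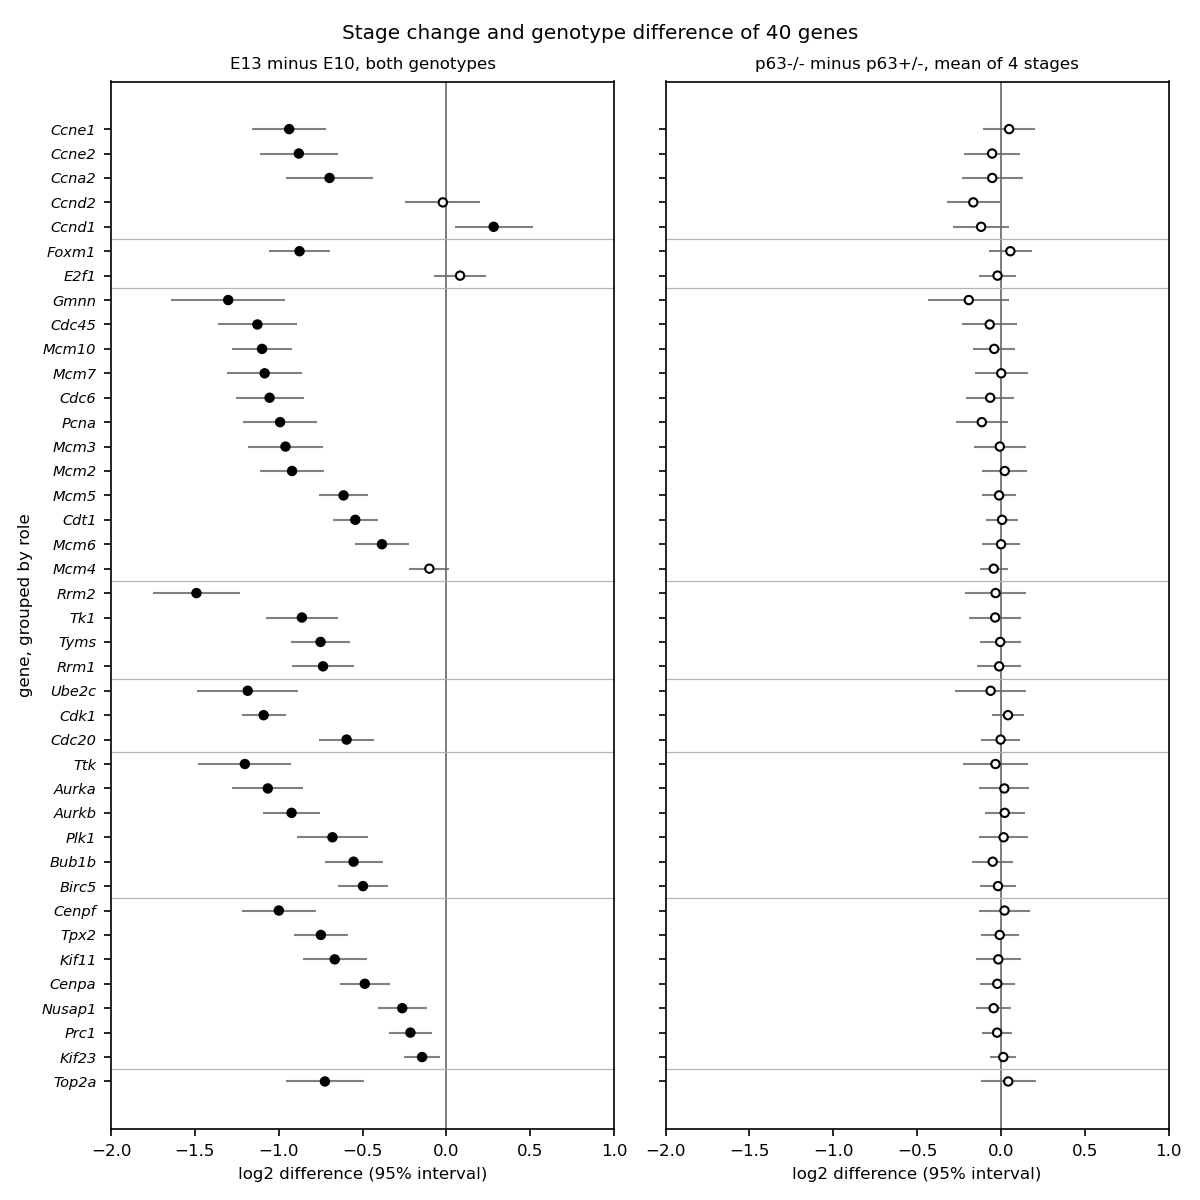
Log2 difference with its 95% interval for each of the 40 genes, at left E13 minus E10 over both genotypes and at right p63-/- minus p63+/- averaged over 4 stages. Filled points have an adjusted p under 0.05 in limma. At left 36 genes are filled and below 0 and Ccnd1 is filled and above 0, and at right no point is filled.

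Most of the list differed between E10 and E13, stages that were read on separate slides. From E10 to E13, over both genotypes, 36 of the 40 genes fell and 1 rose in limma at an adjusted p under 0.05, whereas 35% of all measured genes fell and 31.1% rose. The median change of the 40 genes was -0.75, beside -0.05 for all genes. For 34 of the 40 genes the highest of the 6 E13 arrays lay below the lowest of the 6 E10 arrays, which held for 21.9% of all genes. In bulk tissue, fewer cells of a dividing type and less RNA per cell cannot be told apart. Without E10 p63-/- replicate 3, 36 genes fell and 0 rose, and the median change was -0.81.

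The fall was present in each genotype. In p63+/- embryos 37 genes fell and 0 rose (28% and 25.3% of all genes), and in p63-/- embryos 33 fell and 1 rose (28.5% and 27.4%). All 33 genes that fell in p63-/- also fell in p63+/-. The 4 that fell in p63+/- without passing in p63-/- were Mcm4, Kif23, Nusap1 and Prc1. In p63+/- the call of Mcm4 was lost in 5 of the 24 runs that left out an array, and that of Kif23 in 4. All 3 E13 arrays lay below all 3 E10 arrays for 38 genes in p63+/- and 35 in p63-/-, against 35.1% and 27.9% of all genes. The difference between the genotypes in this change was itself tested and called 0 of 40 genes in limma, against 0.0709% of all genes. At an unadjusted p under 0.05 the count was also 0, against 5.78% of all genes, the smallest being 0.0614 for Mcm4.

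The licensing and helicase genes fell in 11 of 12 cases, with a median of -0.98. Gmnn had the lowest value, -1.30 (SE 0.16, adjusted p = 9.87e-07 in limma), from 7.04 ± 0.14 at E10 to 5.74 ± 0.34 at E13 (SD, n = 6), close to the floor of detection at E13. Cdc45, which joins Mcm and GINS in the active helicase, changed by -1.13 (SE 0.11, adjusted p = 5.14e-08 in limma). Mcm10, needed to fire the loaded helicase, changed by -1.10 (SE 0.09, adjusted p = 2.61e-09 in limma).

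Cdc6, the ATPase that loads the helicase, read 11.33, 11.39 and 11.33 in p63+/- and 11.00, 11.24 and 11.13 in p63-/- at E10. At E13 it read 10.11, 10.12 and 10.36 in p63+/- and 10.00, 10.19 and 10.32 in p63-/-. All E13 arrays lay below all E10 arrays, and the change was -1.05 (SE 0.10, adjusted p = 2.02e-08 in limma). Pcna, the sliding clamp of the polymerases, went from 10.22 ± 0.12 at E10 to 9.23 ± 0.19 at E13 (SD, n = 6), a change of -0.99 (SE 0.11, adjusted p = 1.31e-07 in limma). Cdt1, the partner of Cdc6 in loading, changed by -0.54.

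The 6 helicase subunits did not fall by the same amount. Mcm7 changed by -1.08, Mcm3 by -0.96, Mcm2 by -0.92, Mcm5 by -0.61 and Mcm6 by -0.38 (SE 0.07 to 0.11), all past the test in limma. Mcm4 changed by -0.10 (SE 0.06, adjusted p = 0.122 in limma). Its 6 arrays at E13 lay between 13.67 and 13.78 and at E10 between 13.66 and 13.93, so the stages overlapped. The subunits are read by different probes, and the size of a change depends on the probe, as described below. Whether the subunits differ from one another was not tested.

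All 4 nucleotide synthesis genes fell, with a median of -0.81. Rrm2, the S phase subunit of ribonucleotide reductase, had the lowest change of the list at -1.49 (SE 0.12, adjusted p = 5.96e-09 in limma), or 2.81-fold lower at E13. At E10 it read 11.13, 11.19 and 11.08 in p63+/- and 11.09, 11.06 and 10.83 in p63-/-. At E13 it read 9.15, 9.74 and 9.72 in p63+/- and 9.34, 9.72 and 9.78 in p63-/-. No E13 array reached the E10 range in either genotype. The large subunit Rrm1 changed by -0.74, thymidine kinase Tk1 by -0.86 and Tyms by -0.75.

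Among the G1 and S phase cyclins, 3 of 5 fell, 1 rose and 1 did not pass. The S phase cyclins Ccne1 (-0.94, SE 0.10), Ccne2 (-0.88, SE 0.11) and Ccna2 (-0.70, SE 0.12) fell, with adjusted p of at most 5.93e-05 in limma. Ccna2 was dim, at 6.70 at E10 and 6.01 at E13, not far above the floor of detection. Ccnd1, the D-type cyclin of G1, changed by 0.28 (SE 0.11, adjusted p = 0.0322 in limma), from 13.31 ± 0.20 at E10 to 13.59 ± 0.14 at E13 (SD, n = 6). Ccnd2 was at 12.43 ± 0.28 at E10 and 12.41 ± 0.09 at E13, a change of -0.02 (SE 0.11, adjusted p = 0.871 in limma; 95% interval -0.25 to 0.20).

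Among the calls from E10 to E13 over both genotypes, that of Ccnd1 was lost in the most runs with an array left out, 5 of 24. At E10 Ccnd1 read 13.38, 13.04 and 13.09 in p63-/- and 13.49, 13.32 and 13.52 in p63+/-. At E13 it read 13.54, 13.74 and 13.62 in p63-/- and 13.39, 13.74 and 13.50 in p63+/-, so the p63+/- ranges overlapped between the stages and those of p63-/- did not. The change was 0.46 in p63-/- (adjusted p = 0.0177 in limma) and 0.10 in p63+/- (adjusted p = 0.615 in limma), and the difference between the genotypes did not pass (adjusted p = 0.876 in limma). The call over both genotypes was lost without E10 p63-/- replicate 2 or 3, E10 p63+/- replicate 2, E13 p63-/- replicate 2 or E13 p63+/- replicate 2 (adjusted p = 0.0603 to 0.0891 in limma), and the call in p63-/- without replicate 2 or 3 of E10 or replicate 2 of E13. With scaling of arrays to a common median in place of quantile normalization the change was -0.20, and the mean of the Ccnd1 probes gave 0.13.

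The 2 transcription factors of the list parted. Foxm1, the forkhead activator of G2 and mitotic genes, fell by 0.88 on the log2 scale (SE 0.09, adjusted p = 6.13e-08 in limma), from 10.02 ± 0.07 to 9.14 ± 0.09 (SD, n = 6). E2f1, the activating E2F of the G1 to S transition, changed by 0.08 (SE 0.08, adjusted p = 0.35 in limma), from 10.90 ± 0.09 at E10 through 11.15 ± 0.15 at E11 and 11.13 ± 0.15 at E12 to 10.99 ± 0.11 at E13. E2f1 thus had its highest means at the middle stages.

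All 3 measured genes of the mitotic cyclin, Cdk1 and anaphase complex group fell. Ube2c, the ubiquitin carrier of the anaphase-promoting complex, changed by -1.19 (SE 0.14, adjusted p = 6.96e-07 in limma) and Cdc20, the activator of that complex, by -0.60 (SE 0.08, adjusted p = 1.73e-06 in limma). At E13 Ube2c read 6.25 ± 0.33 (SD, n = 6), not far above the floor of detection. Cdk1 read 12.89, 12.89 and 12.83 in p63+/- and 13.01, 13.08 and 12.99 in p63-/- at E10. At E13 it read 11.83, 11.89 and 11.87 in p63+/- and 11.72, 11.87 and 11.97 in p63-/-. The change was -1.09 (SE 0.06, adjusted p = 1.34e-10 in limma), made up of steps of -0.25, -0.40 and -0.45 between successive stages.

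All 6 measured mitotic kinases and checkpoint genes fell, with a median of -0.80. Ttk, the Mps1 kinase of the spindle checkpoint, changed by -1.20 (SE 0.13, adjusted p = 1.93e-07 in limma). Aurka, the kinase of spindle poles, changed by -1.06, Aurkb, the kinase of the chromosomal passenger complex, by -0.92, and its partner Birc5 (survivin) by -0.50. Plk1 changed by -0.68 and Bub1b by -0.55.

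The 7 measured centromere, spindle and cytokinesis genes all fell, and their median, -0.49, was smaller in size than that of the other groups with at least 3 genes. Cenpf, a kinetochore protein that builds up in G2, fell from 8.10 ± 0.20 at E10 to 7.10 ± 0.15 at E13 (SD, n = 6; SE of the change 0.10, adjusted p = 1.02e-07 in limma). Tpx2, which activates Aurka on microtubules, changed by -0.75, and the kinesin Kif11 by -0.67. The smallest falls that passed were those of Kif23 (-0.14, SE 0.05, adjusted p = 0.0194 in limma), Prc1 (-0.21, SE 0.06, adjusted p = 0.00463 in limma) and Nusap1 (-0.26, SE 0.07, adjusted p = 0.00256 in limma). Kif23 and Prc1 are proteins of the central spindle, and Nusap1 binds spindle microtubules. The call of Kif23 was lost without E10 p63-/- replicate 2 or E10 p63+/- replicate 3 (highest adjusted p = 0.055 in limma).

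Top2a, the chromosomal topoisomerase used as a proliferation marker, read 12.88, 12.94 and 12.84 in p63+/- and 13.17, 13.13 and 12.43 in p63-/- at E10. The low value is that of replicate 3, the array with the yolk sac transcripts. At E13 Top2a read 12.01, 12.16 and 12.25 in p63+/- and 11.99, 12.29 and 12.34 in p63-/-. All E13 arrays lay below all E10 arrays, and the change was -0.72 (SE 0.11, adjusted p = 1.08e-05 in limma), or -0.84 without replicate 3.

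**Figure D3:**
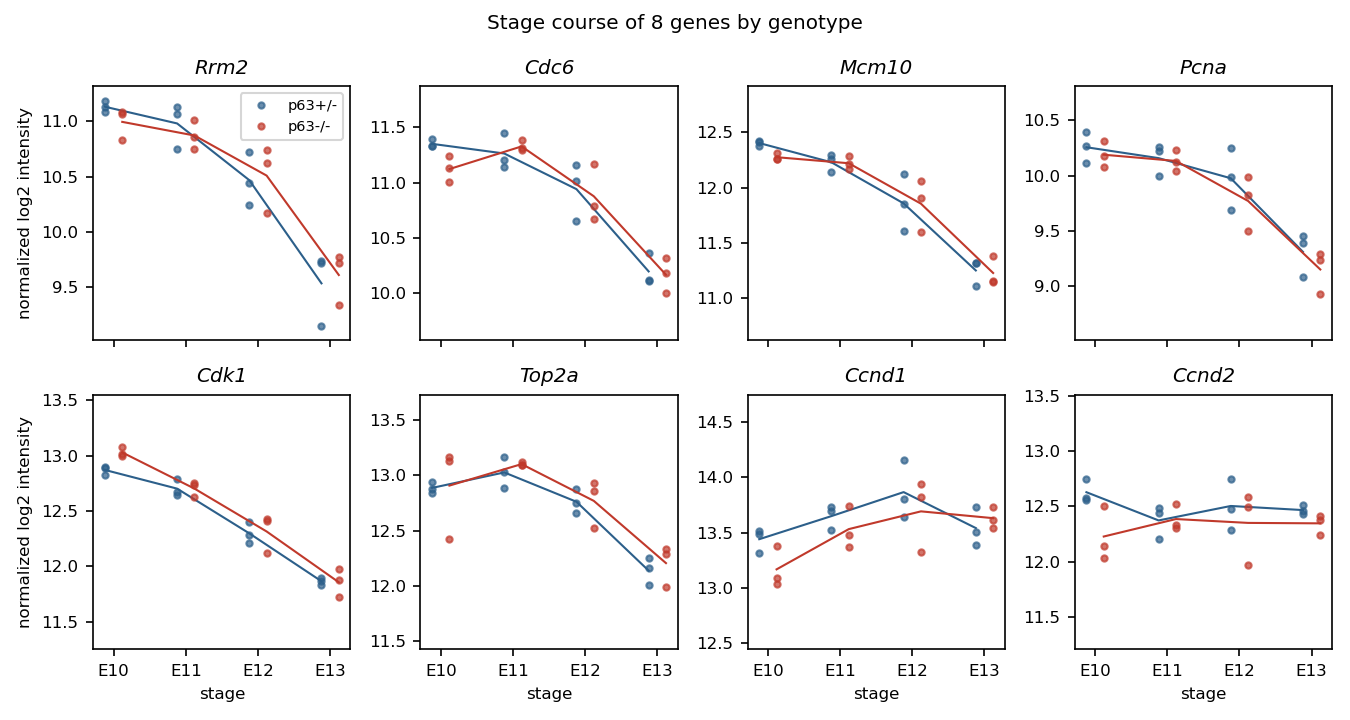
Normalized log2 intensity of 8 genes by stage, with 1 point per embryo, a line through the group means, p63+/- in blue and p63-/- in red; every panel spans the same range of log2 units. Rrm2, Cdc6, Mcm10, Pcna, Cdk1 and Top2a fall to E13 in both genotypes, and Ccnd1 and Ccnd2 do not.

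The fall was late. Between E10 and E11, 2 of the 40 genes fell, Ccne1 (-0.34, SE 0.10, adjusted p = 0.0322 in limma) and Cdk1 (-0.25, SE 0.06, adjusted p = 0.0126 in limma), and E2f1 rose (0.25, SE 0.08, adjusted p = 0.0316 in limma), against 6.61% of all genes falling and 9.53% rising. Without E10 p63+/- replicate 1 or 2 or E11 p63-/- replicate 1, the calls of Ccne1 and E2f1 were both lost and 1 of the 3 was left. In all, the call of Ccne1 was lost in 6 of the 24 runs that left out an array, and that of E2f1 in 5. Between E11 and E12, 17 fell and 0 rose (18.1% and 17.1% of all genes), and between E12 and E13, 37 fell and 0 rose (20.7% and 19%). The median steps were -0.05, -0.21 and -0.48, and those of all genes 0.01, -0.01 and -0.03. The step from E12 to E13 was the lowest of the 3 for 39 of the 40 genes, and for 33 of the 36 genes that fell over the whole course it held most of the change.

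Scaling the arrays to a common median in place of quantile normalization moved the division among the early steps. The median step of all genes was then -0.20 between E10 and E11, 0.17 between E11 and E12 and -0.10 between E12 and E13, and the 40 genes had median steps of -0.34, -0.06 and -0.61. The counts of genes that fell became 31, 4 and 39, with 0 rising at each step. Of all genes called, 4952 of 5551 then fell at the first step, 897 of 5562 at the second and 3846 of 5778 at the last, beside 839 of 2049, 2294 of 4463 and 2630 of 5039 with quantile normalization. The last step was the largest under both scalings, and the size of the first and second steps depends on the scaling.

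The 17 genes that fell between E11 and E12 included replication genes and the mitotic genes Aurka, Aurkb, Cdk1, Cenpf, Top2a and Tpx2. With the mean of all detected probes Birc5, Bub1b, Foxm1 and Ttk were called as well, and Cenpf was not. Gmnn (-0.56, SE 0.16, adjusted p = 0.0133 in limma), Cdc45 (-0.48, SE 0.11, adjusted p = 0.00362 in limma), Tyms (-0.44, SE 0.08, adjusted p = 0.000867 in limma) and Rrm2 (-0.44, SE 0.12, adjusted p = 0.0114 in limma) had the lowest values, followed by Cdk1 and Cdc6. Without replicate 2 of either genotype at E12 the count was 10. With single arrays left out, Mcm7 missed the threshold 19 times out of 24, Tpx2 12 times and Top2a 10 times. The role medians at this step were -0.41 for nucleotide synthesis, -0.28 for licensing and helicase, -0.18 for mitotic kinases and checkpoint and -0.03 for centromere, spindle and cytokinesis. From E12 to E13 the same role medians were -0.46, -0.51, -0.56 and -0.41. Whether replication and mitotic genes differ in timing was not tested.

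At the last step Rrm2 (-0.92, SE 0.12, adjusted p = 2.49e-05 in limma), Ube2c (-0.88, SE 0.14), Ttk (-0.73, SE 0.13), Cdc6 (-0.73, SE 0.10), Aurka (-0.70, SE 0.10) and Gmnn (-0.67, SE 0.16) had the lowest values. Mcm4 passed here, at -0.15 (SE 0.06, adjusted p = 0.04 in limma), as did Mcm6 at -0.20 (SE 0.08, adjusted p = 0.0442 in limma), and both calls were lost in 10 or more of the 24 runs that left out an array. Ccnd1 (-0.19), E2f1 (-0.14) and Ccnd2 (-0.02) did not pass. For 33 of the 40 genes all E13 arrays lay below all E12 arrays, against 9.25% of all genes. The highest stage mean was at E10 for 27 genes, at E11 for 9, at E12 for 4 and at E13 for 0.

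The genes also varied together among embryos. Correlations among other genes were not computed, so the values below are not shown to be particular to this list. Over the 24 arrays the median correlation between pairs of the 40 genes was 0.84 (780 pairs), and it was 0.41 for deviations from the group means; the points share arrays, normalization and, for the first value, stages. Mcm10, Cdc45, Aurka, Rrm2 and Cdc6 were the most like the mean of the other 39 genes, each with a correlation of 0.98 over 24 arrays. Ccnd1 (-0.15), Ccnd2 (0.11), E2f1 (0.21) and Mcm4 (0.53) were the least like it. At E12 the mean deviation of the 40 genes from their group means was -0.03, -0.14 and 0.17 in the 3 p63-/- embryos and -0.02, -0.13 and 0.15 in the 3 p63+/- embryos. At E13 it was -0.15, 0.04 and 0.10 in p63-/- and -0.12, 0.03 and 0.09 in p63+/-. At these stages the list as a whole read lower in some embryos of a group than in others.

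Markers of differentiating and of blood cells moved with stage as well. The counts below stand beside 31.1% of all genes rising and 35% falling over this span. From E10 to E13 all 10 measured skeletal muscle genes of 12 listed rose, with a median of 5.16, and their mean went from 6.36 to 6.73 on the E10 arrays to 11.47 to 12.60 on the E13 arrays. All 4 measured osteoblast genes of 7 listed rose (median 3.57), from 6.90 to 7.92 at E10 to 9.21 to 12.18 at E13. Endothelial genes rose in 7 of 7 cases and macrophage genes in 7 of 8, and cartilage genes rose in 4 and fell in 4 of 10. Erythroid genes, from a lineage that itself divides, fell in 5 of 7 cases, from 13.67 to 14.60 at E10 to 11.99 to 12.54 at E13. Epithelial genes fell in 7 and rose in 2 of 9 cases. The part of these shifts in the fall of the cell cycle genes was not tested.

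Within stages the arrays can be set beside the same markers. The mean of the 36 genes that fell was 11.28 and 11.26 on the E12 arrays where the muscle mean was lowest, 8.56 in p63-/- and 8.42 in p63+/-, and between 10.94 and 11.11 on the other 4, where the muscle mean lay between 9.61 and 10.58. At E13 that mean was lowest, 10.41 and 10.45, on the 2 arrays with the highest osteoblast means, 12.18 and 11.35. It was 10.69 on the 2 arrays with the lowest osteoblast means, 9.21 and 9.59. Endothelial and macrophage means at E13 ran as the osteoblast mean did within each genotype, and the muscle mean did so only in part. In p63-/- the muscle mean was lowest, 11.47, in replicate 2, and replicates 2 and 3 of p63+/- both read 11.75. The muscle, endothelial and macrophage means were highest on the 2 arrays with the lowest cell cycle means (11.80 and 12.60, 10.10 and 9.92, 8.30 and 8.33). The mesenchyme mean (9.72 and 9.41) and the erythroid mean (11.99 and 12.13) were lowest there. At E13 the cartilage and neuron lists ran differently from the osteoblast list. The cartilage mean at E13 was lowest, 8.76 and 8.43, on the 2 arrays with the lowest cell cycle means, and the neuron mean was highest, 9.28 and 8.86, on the 2 with the highest. At E12 the cartilage mean was lowest, 8.26 and 8.13, on the 2 arrays with the highest cell cycle means. The osteoblast mean was lowest on the same arrays, 7.73 and 7.75, and the neuron mean was 7.44 and 9.22 on them. For the genotype comparison, 0 of the 10 muscle, 4 osteoblast and 7 erythroid genes were called in limma on the average over stages, and 0 of the 10, 4 and 7 had an unadjusted p under 0.05. Epithelial genes were lower in 2 and higher in 4 of 9 cases in p63-/-, beside 2.35% of all genes called in either direction.

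**Figure D4:**
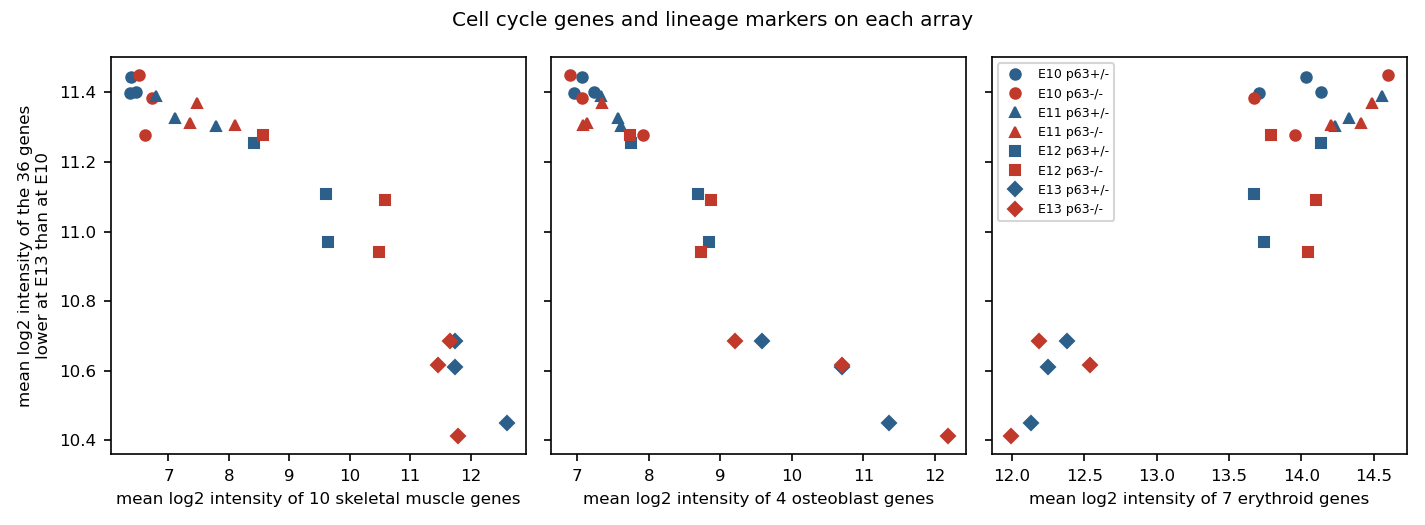
Mean log2 intensity of the 36 cell cycle genes that fell from E10 to E13, on each of 24 arrays, against the mean of the skeletal muscle, osteoblast and erythroid markers. Symbols give the stage and colours the genotype (p63+/- blue, p63-/- red). E13 arrays lie at 10.41 to 10.69 on the vertical axis and E10 arrays at 11.28 to 11.45, and the genotypes are mixed within each stage.

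Other genes of the same machinery, from lists that held 140 further symbols, moved like the members. Of 122 measured, 95 fell and 10 rose from E10 to E13, with a median of -0.59, beside 35% and 31.1% of all genes. For genotype on the average over stages 0 were called in limma and 9 had an unadjusted p under 0.05, beside 2.35% and 10.2% of all genes. All 18 measured kinetochore and spindle checkpoint genes fell, 26 of 27 GINS, polymerase, clamp loader and ligase genes, 14 of 15 spindle kinesins and microtubule factors, 5 of 6 subunits of the origin recognition complex, 11 of 12 G2 and M phase phosphatases and checkpoint kinases, and 8 of 13 condensin and cohesin subunits. Chek2, a DNA damage checkpoint kinase, had the lowest change (-1.66, SE 0.11, adjusted p = 3.05e-10 in limma). Orc1, the origin subunit regulated through the cycle, changed by -1.52 (SE 0.15, adjusted p = 6.21e-08 in limma) and the kinetochore gene Cenph by -1.47 (SE 0.09, adjusted p = 1.77e-10 in limma). Chek2 read between 8.72 and 9.18 at E10 and between 7.10 and 7.46 at E13.

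The CDK inhibitors went the other way in 4 of 7 cases, and 1 fell, beside 31.1% of all genes rising and 35% falling. Cdkn1c, which encodes p57, read between 14.03 and 14.63 at E10 and between 15.53 and 15.66 at E13, a change of 1.27 (SE 0.10, adjusted p = 2.57e-09 in limma). Cdkn2c, which encodes the Ink4 protein p18, was 2.83-fold higher at E13 (SE 0.21 on the log2 scale, adjusted p = 3.74e-06 in limma), Cdkn1a, which encodes p21, by 0.83 (SE 0.19, adjusted p = 0.000611 in limma) and Cdkn2b by 0.50. Cdkn2a, from the locus of p16 and p19Arf, changed by -0.71 (SE 0.12, adjusted p = 5.64e-05 in limma) at readings near the detection floor. Cdkn1b (0.04) and Cdkn2d (0.00) did not pass. The E10 and E13 arrays of Cdkn1c, Cdkn2c and Cdkn1a did not overlap.

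Of 14 measured pocket proteins, other E2F factors and DREAM or MuvB subunits, 9 fell and 1 rose, beside 35% and 31.1% of all genes. The 1 that rose was Rb1, the retinoblastoma protein that binds E2F in G1, by 1.09 (SE 0.11, adjusted p = 8.79e-08 in limma), from 8.46 to 8.97 at E10 to 9.52 to 10.30 at E13. E2f3, an activating E2F, changed by -1.25, and E2f5 and E2f4, E2Fs that act with the pocket proteins, by -1.20 and -1.06 (SE 0.11 to 0.13). Mybl2, the B-Myb that joins MuvB, changed by -0.75. Among 10 G1 kinases and further cyclins 3 fell, near the 35% of all genes, with Ccnf at -0.87 and Cdk4 at -0.69. Another 5 rose, beside 31.1% of all genes: Ccnb3, Ccng1, Ccng2, Cdk2 and Ccnd3, the last by 0.21 (SE 0.09, adjusted p = 0.0498 in limma).

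The size of a change depended on the probe. Over 22 genes with more than 1 probe past the filter, 41 of the 44 further probes had the sign of the brightest one, and 35 were themselves called lower over all 24246 probes fitted. In 18 genes the 2 brightest probes detected on all arrays both had a change below 0, and the brightest was the closer to 0 in 13 of them and the further from it in 5. Cenpa, the centromeric histone, changed by -0.49 on its brightest probe (mean 14.33) and by -1.48 on another (mean 8.35). Mcm10 changed by -1.10 on its brightest probe and by -1.72 on the next, and the 4 probes of Cdc20 gave -0.60, -0.87, -0.90 and -1.09. Top2a went the other way, with -0.72 on its brightest probe and -0.46 and -0.34 on dimmer ones, as did Ttk with -1.20 on its brightest probe and -0.67 on the next. Of the 44 further probes, 26 had a lower change than the brightest probe of their gene and 18 a higher one. Over the 40 genes the mean reading and the change had a Pearson correlation of 0.57 and a Spearman correlation of 0.67, a description over probes that share the arrays. Sizes of change in different genes therefore depend in part on which probes were read.

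A few genes had probes that disagreed. The 4 probes of Kif23 gave -0.14, -0.41, 0.56 and -0.43, all past the test over probes, so the direction for Kif23 rests on which probe is read. Ccnd1 probes gave 0.28, 0.22 and -0.10, of which the brightest passed. Mcm6 had a probe at -0.11 that did not pass beside 3 at -0.38, -0.49 and -0.56 that did. All 3 Mcm4 probes with signal lay between -0.15 and -0.07, and none passed.

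**Figure D5:**
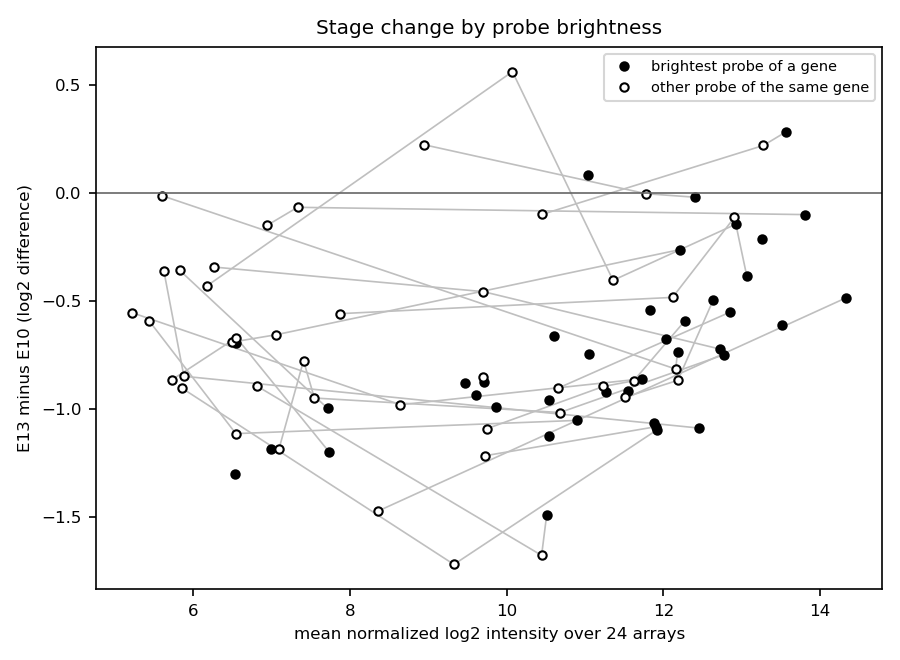
Change from E10 to E13 (log2 difference, both genotypes) against the mean normalized log2 intensity over 24 arrays, for the 84 probes of the 40 genes that passed the detection filter. Filled points are the brightest probe of a gene, open points its other probes, and grey lines join probes of a gene. Of the 44 open points 26 lie below the filled point of their gene and 18 above it, and the open point at 0.56 belongs to Kif23.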

How the data were processed

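Mandibular prominence RNA of 24 mouse embryos was read on Illumina bead arrays, 3 embryos in each of 8 groups taken from the sample labels. Per the file headers, the deposited table pairs every intensity with the p-value of its detection, for 45281 probes; the intensities are linear, and the authors had not scaled them between arrays. A second deposited table holds the authors' processed log2 values, used as an alternative; the submitters' processing notes name BeadStudio, lumi and RMA without roles or settings. Intensities were corrected, quantile-normalized and log2-transformed with neqc of limma 3.58.1 in R 4.3.3 (offset 16). A probe was kept where its detection p was under 0.05 on 3 or more arrays (24233 probes), and the brightest probe stood for each gene (12698). Of all probes, 34885 had 1 gene symbol in the platform annotation, 18 several and 10378 none. A mean per group was fitted in limma (16 residual and 2.96 prior degrees of freedom), with Benjamini-Hochberg adjustment over all genes and a threshold of 0.05; the code was tested on simulated data. All member genes could be named, and of other lists up to 4 genes per list with the largest changes past the threshold. The members, the gene lists and the motifs were chosen with earlier results of these data known. Alternatives were another background correction, offset, scaling, detection filter or probe rule, the authors' values, array weights, the compared arrays alone, a replicate block and each array left out.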

Additional observations from a re-analysis of the deposited data

How the results depend on the processing

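No alternative called a genotype difference in any of the 40 genes (0 in each run, also with each array left out). From E10 to E13 between 35 and 38 genes were called over both genotypes under the other settings, and with single arrays left out the counts ran from 35 to 37 over both genotypes, 35 to 37 in p63+/-, 32 to 34 in p63-/- and 35 to 37 for E13 against E12. The early steps depended on the processing. For E11 against E10, where 3 genes were called, scaling to the median called 31, array weights 7, and leaving out single arrays 1 to 4. For E12 against E11, where 17 were called, scaling to the median called 4, and leaving out single arrays 10 (without E12 p63-/- or p63+/- replicate 2) to 21 (without either replicate 3). Median scaling also turned signs of changes that were called under it or under quantile normalization. Ccnd1 from E10 to E13 went to -0.018 in p63-/- and -0.20 over both genotypes, and Mcm4 in p63-/- to -0.49. From E10 to E11 Mcm4 went to -0.29, E2f1 to -0.025, Birc5 to -0.26, Bub1b to -0.30, Kif23 to -0.22 and Prc1 to -0.24. Signs of changes called under neither are not listed, and the cause was not tested. The rise of Ccnd1 did not pass in 5 runs with an array left out, with the authors' values (adjusted p = 0.0902 in limma) or with the mean of its probes (adjusted p = 0.351 in limma).

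The study collected littermates of both genotypes, and same-numbered embryos have consecutive sample IDs in 12 of 12 pairs, but the labels do not say that a replicate number marks a litter. Deviations of same-numbered embryos of the 2 genotypes correlated between 0.04 and 0.63 over all genes, above 0.1 in 9 of 12 pairs. Because no label gives the numbers as litters, they were not used as pairs in the reported values. The standard errors and intervals given above are therefore those of an unpaired fit. Of 24 arrays, 21 correlated best with the array of their own number at that stage, and the mean deviation of the 40 genes had the same sign in 9 of 12 pairs, which hints at pairing. For genotype, the replicate block joined same-numbered embryos within a stage. For stage changes it joined equal numbers across stages, which are different embryos, so there it is not a fit of pairs. With the block 0 of the 40 genes were called for genotype, and 36 fell and 1 rose from E10 to E13. Of all genes, 384 in place of 298 were called on the genotype average (600 with array weights). At E10 the count was 205 in place of 101 (295 with array weights). For stage changes the block ended the call of Kif23 in p63+/- from E10 to E13 (adjusted p = 0.0536 in limma) and, from E11 to E12, those of Mcm7, Top2a and Tpx2 (adjusted p = 0.0589, 0.0546 and 0.0531 in limma); Mcm5 and Kif11 were then called, 16 genes in place of 17. The number of arrays and the distance of dim probes such as Gmnn, Ccna2 and Ube2c from background limit these readings.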
